A study of Mus musculus with 18 samples.

Results

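The heat shock proteins and their chaperone partners were examined as a module in bulk RNA from the cortex of mice with or without Chd8 in astrocytes, after lipopolysaccharide or saline. Members were chosen by symbol alone: Hspa, Hspb, Hspd, Hspe, Hsph and Hsp90 genes, the J-domain co-chaperones Dnaja, Dnajb and Dnajc, and the chaperonin subunits Cct2 to Cct8, without the endoplasmic reticulum genes Hspa5, Hsp90b1 and Dnajb9. The rule found 67 of the 13784 genes in the authors' deposited tables, under 66 symbols, because Hspa14 stands for 2 gene identifiers. They comprised 13 HSP70 and HSP110 genes, 2 HSP90 genes, 4 small heat shock proteins, 2 subunits of the mitochondrial chaperonin, 7 CCT subunits, 4 DNAJA, 8 DNAJB and 25 DNAJC genes, and 2 others, Hspbp1 and Hspbap1. The label of cytosolic chaperones holds for most of these, but not for all. The rule also takes in mitochondrial proteins (among them Hspd1, Hspe1, Hspa9 and Dnaja3). It takes in proteins of the endoplasmic reticulum as well (among them Hspa13, Dnajb11, Dnajb12, Dnajc1, Dnajc3 and Dnajc10). Hspb11, counted by its symbol among the small heat shock proteins, is a subunit of the intraflagellar transport machinery.

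The study compared 4 groups of mice, 18 in all. Control mice received saline (4 mice) or lipopolysaccharide (LPS, the bacterial outer-membrane component that sets off innate immune signalling; 5 mice), and so did mice whose astrocytes lack Chd8, a chromatin remodeller, through a conditional knockout (cKO; 4 saline, 5 LPS). LPS was injected into the peritoneum at 5 mg/kg in animals aged 4 to 6 months, and tissue was collected 72 hours later. The promoter that drives Cre, the genotype of the controls beyond that word and the sex of the mice are not given in the labels used here. The question put to the data was how expression changes when astrocytes lack Chd8, at baseline and under inflammation.

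HSP70 proteins bind unfolded stretches of other proteins and release them through cycles of ATP hydrolysis, J-domain proteins deliver the substrates and start that hydrolysis, and HSP110 proteins such as Hspa4, Hspa4l and Hsph1 exchange the nucleotide. HSP90 finishes the folding of kinases and steroid receptors, the CCT ring folds actin and tubulin, and small heat shock proteins hold unfolded proteins without using ATP. In neurons the constitutive HSP70, Hspa8, also strips clathrin from recycled synaptic vesicles together with auxilin, the product of Dnajc6. Under heat or proteotoxic stress the transcription factor HSF1 induces a part of the family by binding heat shock elements, alternating GAA and TTC units with 2 bases between them, in their promoters.

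The promoter sequences are shown here because they mark which of the members searched carry such an element close to the start of transcription. RefSeq windows on build GRCm38.p6, from 250 bases before to 50 bases after each start, matched 54 of the 66 member symbols. Members without a window were not searched: Hspa8, Hspa9, Hspa13, Hsp90aa1, Hsp90ab1, Cct4, Dnajc2, Dnajc5, Dnajc11, Dnajc12, Dnajc18 and Dnajc30. Neighbouring units read GAANNTTC or TTCNNGAA, each its own reverse complement, so both strands are covered. An element of 3 or more units in a row stood in the windows of 4 of 54 members (7.41%), against 60 of 10271 measured genes (0.584%) and 0.662% of all genes in the promoter table. These were Hspd1 and Hspe1, which share 1 bidirectional promoter and the same 18 bases of element read from opposite strands, Dnajb6 and Hsph1. Capitals mark the units and the bases between them. The regions are chr1:55088051-55088084 (minus strand for Hspd1, plus strand for Hspe1), chr5:29735844-29735872 (plus strand) for Dnajb6 and chr5:149636280-149636308 (minus strand, after the start site) for Hsph1.
Hspd1: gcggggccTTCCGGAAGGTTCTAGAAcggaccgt
Hspe1: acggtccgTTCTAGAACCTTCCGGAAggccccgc
Dnajb6: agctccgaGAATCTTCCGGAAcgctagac
Hsph1: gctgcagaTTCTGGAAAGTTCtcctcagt

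With 2 units accepted, a search added after the windows had been seen, 17 of 54 members (31.5%) held a match, against 13.8% of measured genes and 17.0% of all genes in the table. Among these were the inducible HSP70 genes Hspa1a and Hspa1b, neighbours on chromosome 17 at chr17:34972233-34972280 and chr17:34959315-34959362, both on the minus strand. Their windows had the same base at 296 of 300 positions (98.7%), and the stretch around the match is the same in both.
Hspa1a: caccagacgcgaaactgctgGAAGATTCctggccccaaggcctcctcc
Hspa1b: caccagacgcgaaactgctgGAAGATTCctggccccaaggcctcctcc
These matches are letters in a fixed window and not measured binding. The likeness extends into the transcripts: 62.3% of the 50-base stretches of Hspa1b also occur in other genes, as do 60.3% of those of Hspa1a, 58.5% of Hsp90aa1, 51.6% of Hspb1, 51.4% of Hspa8, 44.8% of Hspd1 and 35.8% of Dnajb6; for Hspa1a and Hspa1b the gene that shares most is the other of the pair. For Hsp90aa1, Hspa8, Hspb1, Hspd1 and Dnajb6 the gene that shares most is Gm12346, Gm15459, Hsp25-ps1, Hspd1-ps3 and Gm2541, in that order. RSEM, which the submitters' processing notes name without its role, assigns reads that match several genes by statistical estimation. The values of these 7 genes may thus depend on that estimation. How far they do, and whether the genes that share stretches with them are expressed, was not checked.

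Only the authors' deposited tables of 3 comparisons were used, which list, gene by gene, the log2 fold change, the average expression as log2 CPM (a count scaled to sequencing depth), the F statistic, the p-value and the false discovery rate (FDR). Values per mouse were not used here, so each level below is a group estimate computed from those tables, each standard error (SE) of a single comparison is the size of the log2 fold change over the root of F (that of a difference of LPS responses comes from the p-values), and the spread between mice enters only through them. Chd8 itself, measured over all cortical cells, lay at 0.02 ± 0.05 (SE; FDR = 0.901) between cKO and control mice after LPS in the authors' deposited table, which does not check the loss in astrocytes. Of 7 markers of cortical excitatory neurons all were measured, with summed levels between 2018 and 2509 CPM in the 4 groups computed from the authors' deposited tables. Markers of striatum summed to 216 to 315 CPM. The 3 measured choroid plexus markers lay below 0 after LPS in both genotypes (median -0.91 in controls, -0.40 in cKO mice), with 0 called by edgeR. Of these, Ttr had -4.03 ± 1.96 (SE) in controls and -2.83 ± 1.86 (SE) in cKO mice in the authors' deposited tables. Group levels are unreliable for fold changes that large, so choroid plexus levels were not summed. None of the 5 markers of red blood cells and none of the 3 markers of neutrophils was among the genes of the authors' deposited tables, so neither list could be read. In controls the Y-linked genes Ddx3y and Uty had 10.87 ± 2.63 (SE; FDR = 0.0351) and 9.81 ± 2.45 (SE; FDR = 0.0377) after LPS in the authors' deposited table. In cKO mice they had -0.16 ± 1.30 (SE) and -0.50 ± 1.15 (SE). The X-linked Xist had -0.14 ± 0.89 (SE) in controls and 1.56 ± 1.96 (SE) in cKO mice in the authors' deposited tables. The control comparison thus differs in these Y-linked transcripts as well as in treatment, with no difference detected for Xist. In bulk tissue, fewer cells of a type and less RNA per cell cannot be told apart.

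Chaperones were among the abundant messages of the cortex. On a scale of mean log2 CPM per kilobase of transcript, computed from the authors' deposited tables, the members' median was 4.16, against 2.95 for all genes. The highest was Hspa8 at 9.45 (percentile 99.8 of all genes), followed by the HSP90 genes Hsp90ab1 at 8.45 and Hsp90aa1 at 8.41, and then Dnajc6 at 6.64. The CCT subunits lay between 4.80 (Cct3) and 6.15 (Cct5). The inducible Hspa1a and Hspa1b stood lower, at 2.11 and 2.20, and the small heat shock proteins Hspb8 and Hspb1 at 2.61 and 2.46. The lowest was Hspb6, a small heat shock protein of muscle cells, at -0.14.

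After LPS in control mice few members were called. In the authors' deposited table for controls, 2 of 67 members passed an FDR below 0.05 (2.99%), against 9.76% of all genes, with 1 member up where 6.46% of all genes rose and 1 down where 3.31% fell. At an unadjusted p below 0.05 the shares were 28.4% of members (19 of 67) and 28.9% of all genes. The members' median log2 fold change in the authors' deposited table was -0.07, against -0.00 for all genes, and 23 of 67 lay above 0. The 95% interval computed from the authors' deposited table stayed within a 1.5-fold change in either direction for 59 of 67 members (88.1%), as it did for 78.5% of all genes.

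The gene that rose in controls was Hspb6. Its estimated levels were log2 CPM 0.19 in control saline and 1.30 in control LPS, against 0.58 in cKO saline and 1.11 in cKO LPS, so both LPS groups were above both saline groups. The log2 fold change was 1.12 ± 0.27 (SE; FDR = 0.0343) in the authors' deposited table for controls and 0.53 ± 0.26 (SE; FDR = 0.173) in that for cKO mice. Hspb6 was the only member whose mean fell under log2 CPM 1 in the control table, so a filter at that level removed it, and centring on genes of the same level gave 0.79 with an adjusted p = 0.0925. Of the pericyte and smooth muscle markers, 6 of 8 were measured, with Cnn1 and Des not among them. Their summed levels computed from the authors' deposited tables were 138 CPM in control saline, 165 in control LPS, 135 in cKO saline and 141 in cKO LPS. In the authors' deposited tables all 6 markers lay above 0 after LPS in controls and 4 did in cKO mice. There Tagln (-0.19 ± 0.19 SE) and Rgs5 (-0.12 ± 0.11 SE) lay below 0. Only Pdgfrb was called, with a rise in controls (0.37 ± 0.08 SE; FDR = 0.0279) and in cKO mice (0.57 ± 0.11 SE; FDR = 0.0117). Of all genes 6.46% rose in controls and 10.9% in cKO mice. The part of these markers in the value of Hspb6 was not tested.

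The gene that fell in controls was Dnajc6, and it was the only member called in both genotypes. Estimated levels were log2 CPM 9.18 in control saline and 9.19 in cKO saline, against 8.94 and 8.95 after LPS, so the genotypes lay almost on top of each other. Dnajc6 fell by 0.24 ± 0.06 (SE; FDR = 0.0399), to 0.846 times the saline level, in the authors' deposited table for controls, and by 0.24 ± 0.06 (SE; FDR = 0.0195), to 0.848 times, in that for cKO mice. Both calls ended with centring on genes of the same level, at -0.20 (adjusted p = 0.0753) in controls and -0.17 (adjusted p = 0.0565) in cKO mice. The difference between the responses was 0.00 ± 0.11 (SE), computed from the authors' deposited tables. Hspa8, with which auxilin works, had -0.22 ± 0.08 (SE; FDR = 0.107) in the authors' deposited table for controls. Dnajc5, the cysteine-string protein of synaptic vesicles, had -0.09 ± 0.06 (SE; FDR = 0.327) in controls and -0.17 ± 0.06 (SE; FDR = 0.0785) in cKO mice in the authors' deposited tables.

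**Figure D1:**
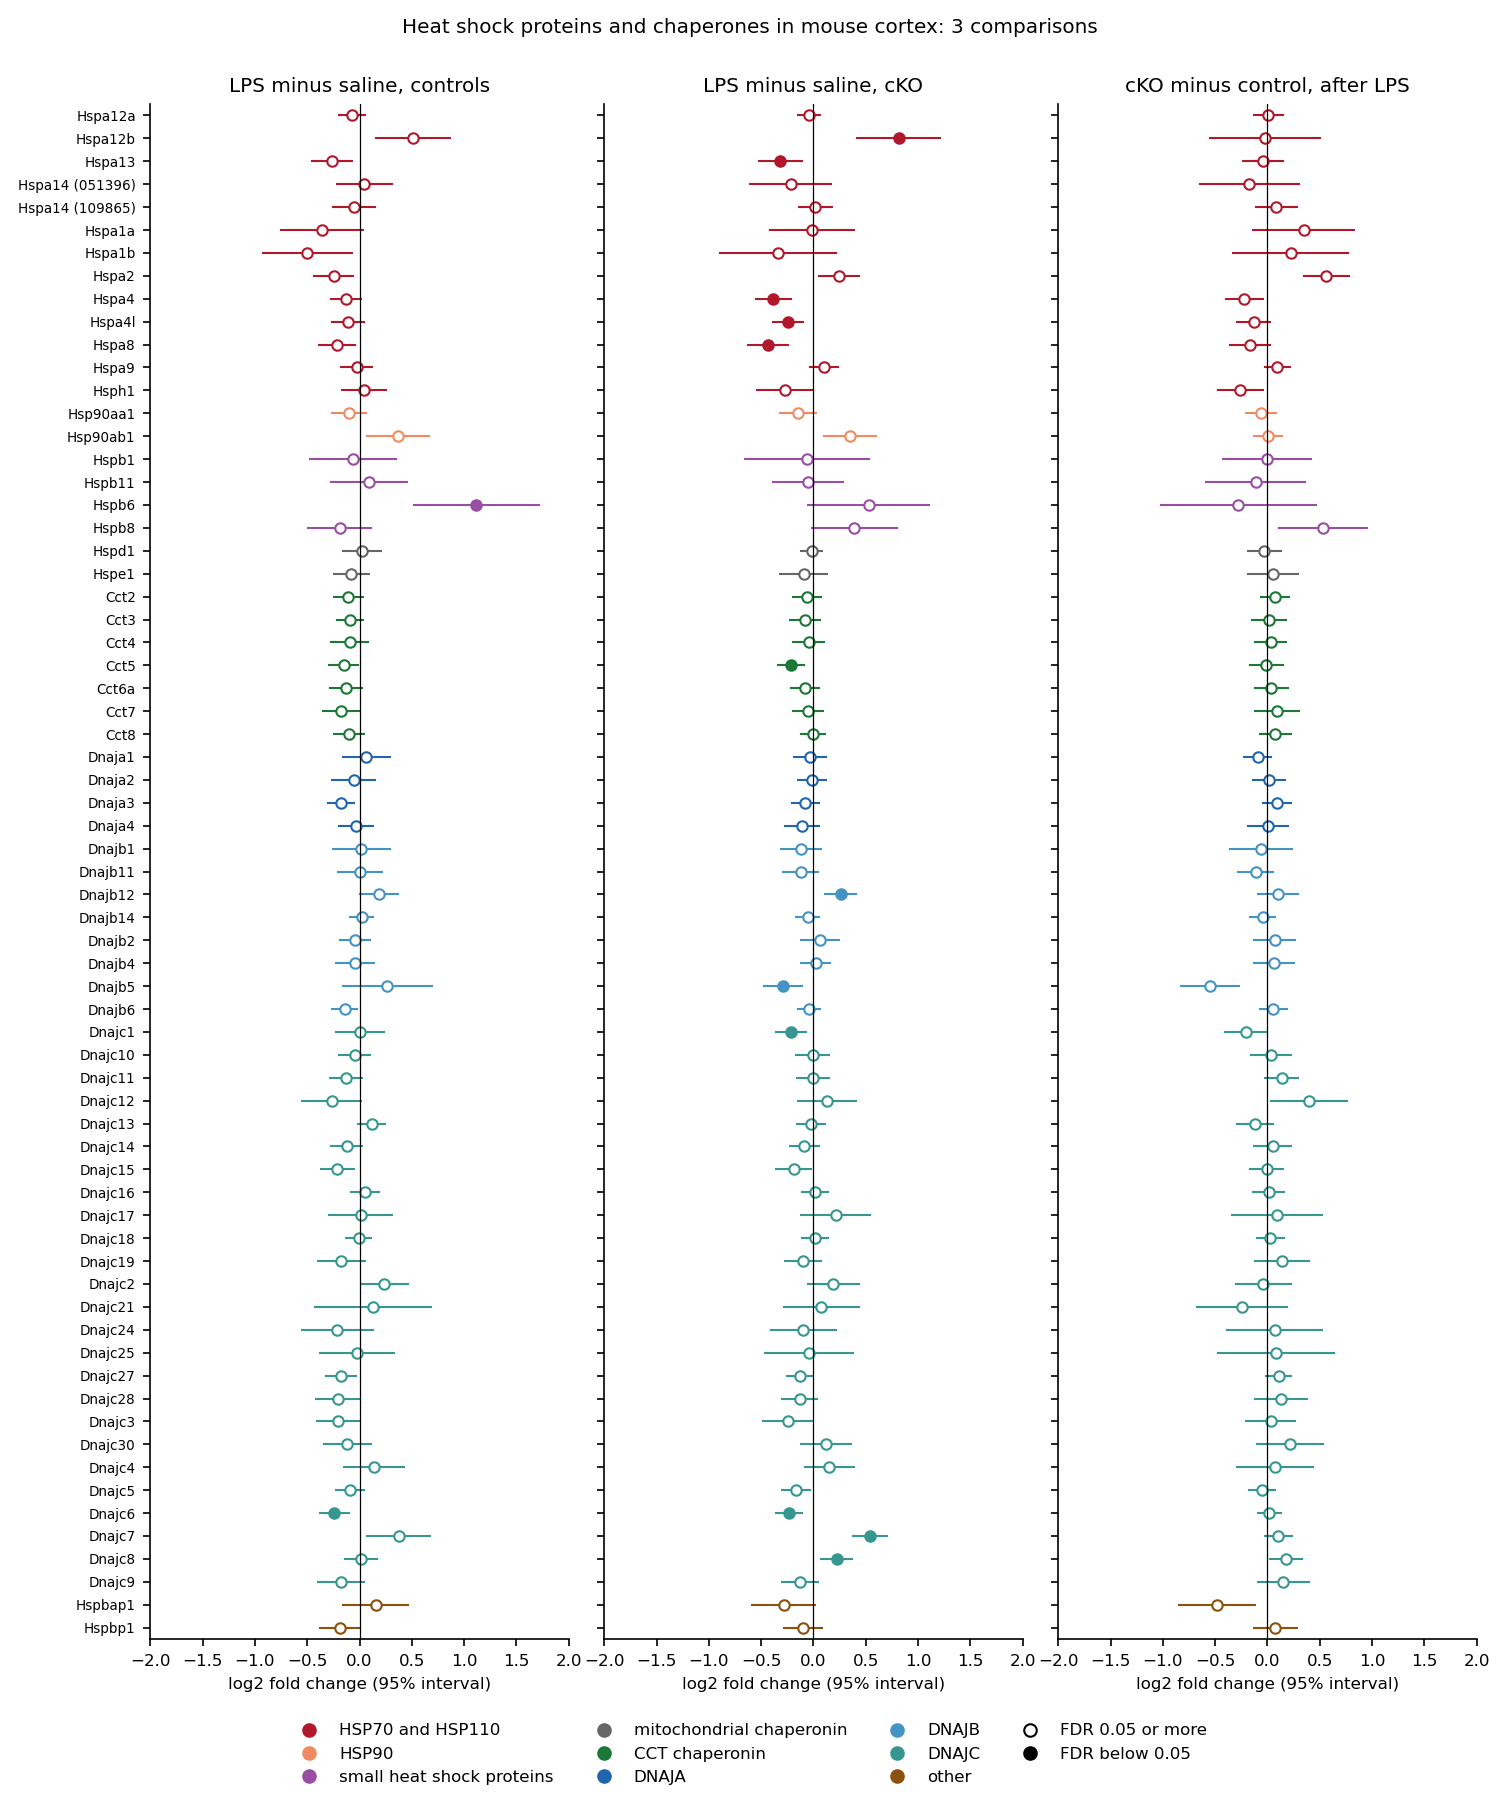
Log2 fold change with its 95% interval for all 67 members in the 3 comparisons, from the authors' deposited tables, coloured by family, with filled points for an FDR below 0.05 (the Hspa14 rows carry the end of their gene identifiers). The 2 filled points in controls are Hspb6 and Dnajc6, 12 points are filled in cKO mice, and none is filled between genotypes.

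After LPS in cKO mice more members were called than in controls, as were more genes of the whole table. In the authors' deposited table for cKO mice, 12 of 67 members passed (17.9%), against 19.5% of all genes. Of these, 4 rose (5.97% of members, against 10.9% of all genes) and 8 fell (11.9%, against 8.52%). The split depended on the scaling: with fold changes centred on genes of the same level, 5 members rose and 3 fell, and after correction for a trend with GC content and length, 3 rose and 6 fell. At an unadjusted p below 0.05 the authors' deposited table held 28.4% of members and 35.8% of all genes. The median log2 fold change was -0.05 over members and -0.00 over all genes in the authors' deposited table, and 66 of 67 members had a fold change under 1.5.

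Of the 8 falls in cKO mice, 4 were HSP70 or HSP110 genes. Hspa8, the constitutive HSP70, had estimated levels of log2 CPM 11.33 in cKO saline and 10.90 in cKO LPS, against 11.24 and 11.03 in controls. It fell by 0.44 ± 0.08 (SE; FDR = 0.0113), to 0.740 times the saline level, in the authors' deposited table for cKO mice. Hspa4 stood at 8.21 in cKO saline and 7.83 in cKO LPS, against 8.14 and 8.01 in controls, so the cKO LPS group was the lowest for both genes. Hspa4 fell by 0.38 ± 0.07 (SE; FDR = 0.0113) in the authors' deposited table for cKO mice, where controls had -0.13 ± 0.06 (SE; FDR = 0.203). Its relative Hspa4l fell by 0.24 ± 0.06 (SE; FDR = 0.0297) in the authors' deposited table for cKO mice, a call lost under the GC and length correction (-0.07, adjusted p = 0.493) and under centring (-0.19, adjusted p = 0.0686). Hsph1, the remaining HSP110 gene, had -0.27 ± 0.12 (SE; FDR = 0.127) in cKO mice and 0.04 ± 0.09 (SE; FDR = 0.793) in controls in the authors' deposited tables. Hspa13, an HSP70-like ATPase of microsomes, fell by 0.32 ± 0.09 (SE; FDR = 0.0379) in the authors' deposited table for cKO mice. That call was lost under the GC and length correction (-0.20, adjusted p = 0.160) and under centring (-0.29, adjusted p = 0.0533). Controls had a similar value of -0.26 ± 0.09 (SE; FDR = 0.0825) for Hspa13 in the authors' deposited table.

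Of the 13 HSP70 and HSP110 rows, 4 lay above 0 in the authors' deposited table for cKO mice, and 1 of these was called. Hspa12b, a distant HSP70 relative known from endothelial cells, had estimated levels of log2 CPM 2.33 in cKO saline and 3.15 in cKO LPS, against 2.66 and 3.17 in controls. It rose by 0.82 ± 0.18 (SE; FDR = 0.0161), to 1.76 times the saline level, in the authors' deposited table for cKO mice, and had 0.51 ± 0.16 (SE; FDR = 0.0711) in controls. The LPS groups thus stood at nearly the same level, and the saline groups 0.33 apart. All 5 endothelial markers were measured (Cldn5, Pecam1, Flt1, Tek, Cdh5), and they lay above 0 in both LPS comparisons of the authors' deposited tables, with 3 past the threshold in controls and 4 in cKO mice. Their summed levels computed from the authors' deposited tables were 120 CPM in control saline, 190 in control LPS, 118 in cKO saline and 169 in cKO LPS. Their part in the value of Hspa12b was not tested. Its neuronal relative Hspa12a had -0.07 ± 0.05 (SE; FDR = 0.429) in controls and -0.04 ± 0.05 (SE; FDR = 0.550) in cKO mice in the authors' deposited tables.

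Over the HSP70 and HSP110 family the median log2 fold change in the authors' deposited tables was -0.11 in controls, with 0 of 13 rows called (9.76% of all genes), and -0.22 in cKO mice, with 1 risen and 4 fallen (10.9% and 8.52% of all genes). In controls 5 of these 13, and 28.9% of all genes, had an unadjusted p below 0.05. The cKO median kept its sign under centring (-0.19) and under the GC and length correction (-0.13). Hspa9, the mitochondrial HSP70, had -0.03 ± 0.07 (SE; FDR = 0.817) in controls and 0.10 ± 0.06 (SE; FDR = 0.254) in cKO mice in the authors' deposited tables. The inducible pair Hspa1a and Hspa1b had -0.36 ± 0.18 (SE; FDR = 0.211) and -0.50 ± 0.19 (SE; FDR = 0.117) in controls in the authors' deposited table. In cKO mice they had -0.02 ± 0.18 (SE; FDR = 0.958) and -0.34 ± 0.25 (SE; FDR = 0.353) in the authors' deposited table, so no rise was detected for either.

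**Figure D2:**
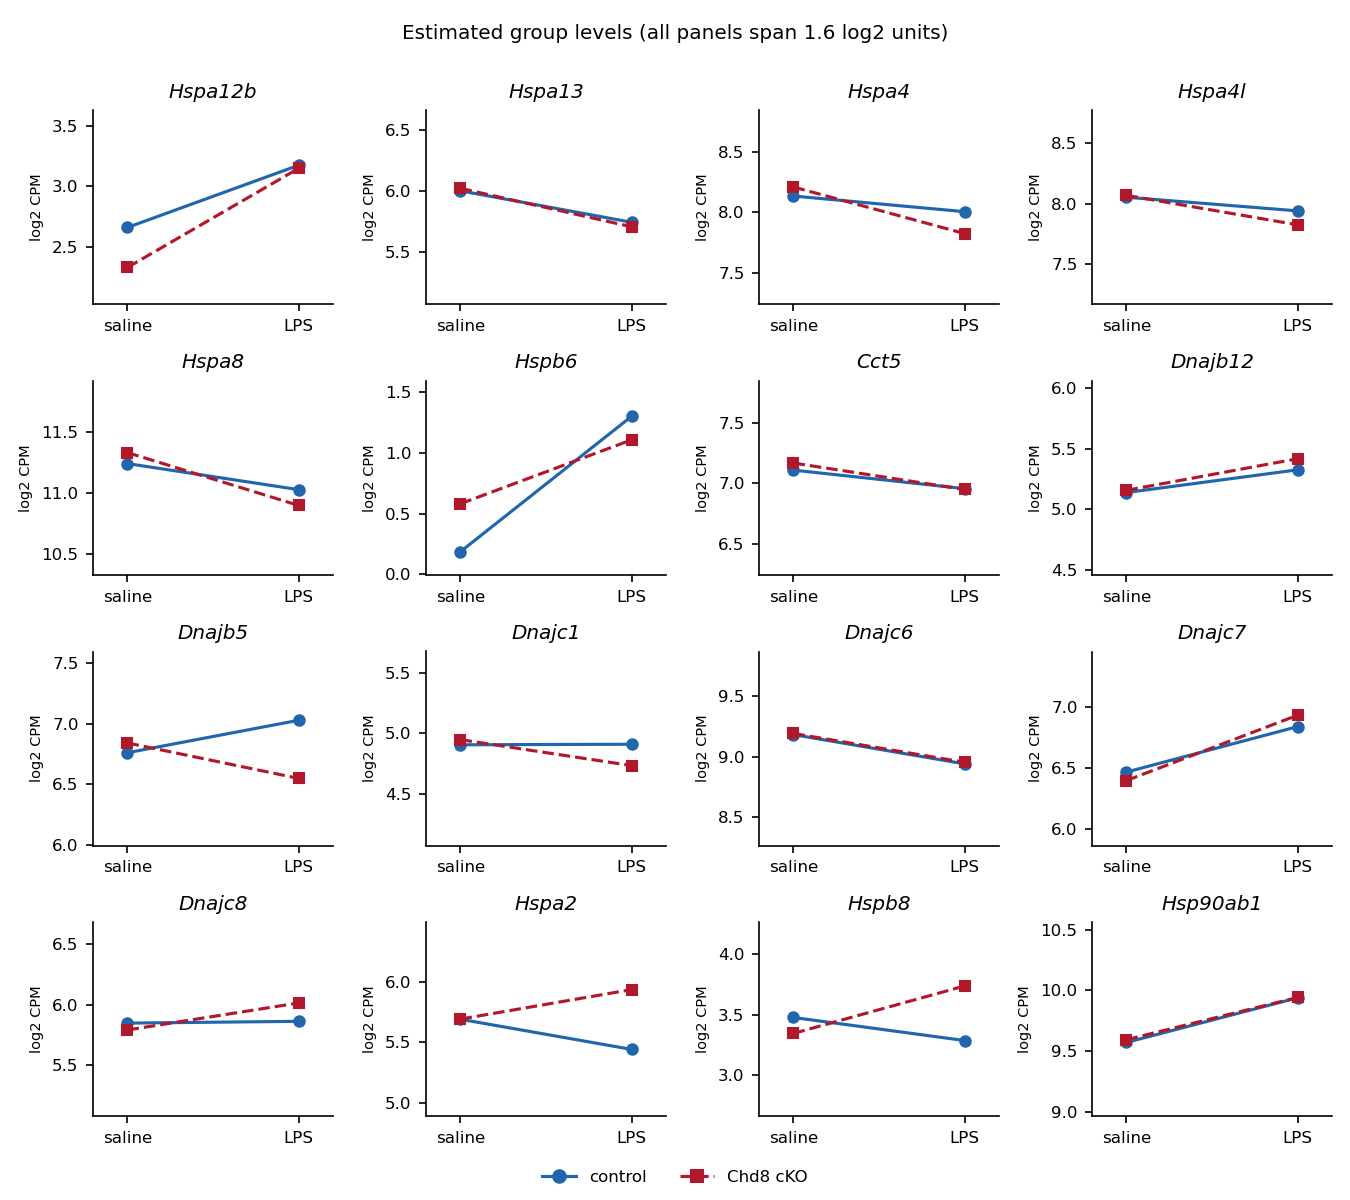
Estimated group levels (log2 CPM, computed from the authors' deposited tables; vertical axes of equal span, no error bars because values per mouse were not used) after saline and LPS in control (blue circles) and Chd8 cKO mice (red squares) for the called members and Hspa2, Hspb8 and Hsp90ab1. Hspa8 and Hspa4 are lowest in cKO LPS, the lines of Dnajc6 and Hsp90ab1 coincide, and those of Hspa2 and Dnajb5 part after LPS.

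The J-domain proteins, which choose what HSP70 works on, split without a common direction. Dnajc7, whose repeats bind both HSP70 and HSP90, had the smallest FDR of the module: estimated levels were log2 CPM 6.40 in cKO saline and 6.94 in cKO LPS, against 6.47 and 6.84 in controls. It rose by 0.54 ± 0.07 (SE; FDR = 0.00496), or 45.3%, in the authors' deposited table for cKO mice, and had 0.37 ± 0.13 (SE; FDR = 0.101) in controls. Dnajb12, an endoplasmic reticulum membrane protein with its J-domain in the cytosol, rose by 0.26 ± 0.07 (SE; FDR = 0.0255) in the authors' deposited table for cKO mice, a call lost under the GC and length correction (0.17, adjusted p = 0.0975). Dnajc8, a protein of the splicing machinery, rose by 0.22 ± 0.07 (SE; FDR = 0.0430) in the authors' deposited table for cKO mice, with 0.01 ± 0.07 (SE; FDR = 0.911) in controls. Among the falls, Dnajc1, whose J-domain recruits the reticulum's own HSP70, fell by 0.21 ± 0.06 (SE; FDR = 0.0444) in the authors' deposited table for cKO mice. Dnajb5 fell by 0.29 ± 0.08 (SE; FDR = 0.0328) in the same authors' deposited table, with 0.27 ± 0.19 (SE; FDR = 0.379) in controls. Centring on genes of the same level ended the calls of Dnajc1 (-0.20, adjusted p = 0.0586) and Dnajb5 (-0.25, adjusted p = 0.0592).

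The DNAJA class, the general-purpose partners of HSP70, had 0 of 4 genes called in either LPS comparison by edgeR in the authors' deposited tables. Of all genes 9.76% were called in controls and 19.5% in cKO mice. An unadjusted p below 0.05 was held by 1 of 4 (Dnaja3, mitochondrial) in controls and 0 in cKO mice, against 28.9% and 35.8% of all genes. Dnaja1 had 0.06 ± 0.10 (SE) and -0.03 ± 0.07 (SE) in controls and cKO mice, Dnaja2 had -0.06 ± 0.09 and -0.02 ± 0.06, and Dnaja4 had -0.03 ± 0.07 and -0.11 ± 0.07 in the authors' deposited tables. Dnaja3 had -0.18 ± 0.06 (SE; FDR = 0.0705) in controls in the authors' deposited table. In the DNAJB class, Dnajb1, the stress-inducible partner of Hspa1a, had 0.02 ± 0.12 (SE) in controls and -0.12 ± 0.09 (SE) in cKO mice in the authors' deposited tables. Dnajb2 and Dnajb6, which keep aggregation-prone proteins soluble in neurons, had -0.04 ± 0.06 and -0.14 ± 0.05 (SE) in controls and 0.07 ± 0.08 and -0.04 ± 0.05 (SE) in cKO mice in the authors' deposited tables. Dnajc3, an inhibitor of stress kinases that also serves in the endoplasmic reticulum, had -0.21 ± 0.09 (SE; FDR = 0.166) in controls and -0.25 ± 0.11 (SE; FDR = 0.126) in cKO mice in the authors' deposited tables. The median of the 25 DNAJC genes in the authors' deposited tables was -0.09 in controls (0 risen, 1 fallen) and -0.02 in cKO mice (2 risen, 2 fallen). The latter turned to 0.01 with centring. Of all genes 6.46% rose and 3.31% fell in controls, and 10.9% and 8.52% in cKO mice.

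After LPS no HSP90 gene was called by edgeR in the authors' deposited tables, with 1 of 2 (Hsp90ab1) at an unadjusted p below 0.05 in each genotype. Of the CCT subunits 1 was called, in cKO mice. The shares called over all genes were 9.76% in controls and 19.5% in cKO mice. Hsp90ab1, the constitutive HSP90, had estimated levels of log2 CPM 9.57 in control saline and 9.59 in cKO saline, and 9.94 in both LPS groups. It had 0.37 ± 0.13 (SE; FDR = 0.101) in controls and 0.35 ± 0.11 (SE; FDR = 0.0564) in cKO mice in the authors' deposited tables, short of the threshold in both, and passed in cKO mice only with centring (0.41, adjusted p = 0.0372). Hsp90aa1, the inducible form, had -0.10 ± 0.07 (SE; FDR = 0.408) in controls and -0.15 ± 0.08 (SE; FDR = 0.201) in cKO mice in the authors' deposited tables. The 7 CCT subunits all lay below 0 after LPS in both genotypes, from -0.18 (Cct7) to -0.09 (Cct4 and Cct3) in controls and from -0.22 (Cct5) to -0.01 (Cct8) in cKO mice in the authors' deposited tables. With centring 2 of the 7, and with the GC and length correction 1 of the 7, turned above 0 in cKO mice, while in controls all 7 stayed below 0. Cct5 was the subunit that passed, and it fell by 0.22 ± 0.06 (SE; FDR = 0.0270), to 0.860 times the saline level, in the authors' deposited table for cKO mice. Every interval of the 7 subunits in the authors' deposited tables stayed within a 1.5-fold change. The mitochondrial pair, which shares the promoter printed above, had 0.02 ± 0.08 (SE) for Hspd1 and -0.08 ± 0.08 (SE) for Hspe1 in controls, and -0.02 ± 0.05 and -0.09 ± 0.10 (SE) in cKO mice, in the authors' deposited tables.

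Of the 14 members listed as heat-inducible targets of HSF1, a list that also holds the constitutively abundant Hspa8 and Hsp90ab1, none passed the threshold as a rise after LPS. By edgeR in the authors' deposited tables, none of the 14 was called in controls, against 9.76% of all genes. An unadjusted p below 0.05 in controls was held by 3 of the 14 and by 28.9% of all genes. In cKO mice 0 rose and 2 fell (Hspa8 and Hspa4l), where 10.9% of all genes rose and 8.52% fell. For a list of 14 these counts are not far from those shares. Hsp90ab1 was nearest to a call, with the values given above, and 5 of the 14 lay above 0 in controls and 3 in cKO mice in the authors' deposited tables. Their median log2 fold change in the authors' deposited tables was -0.07 in controls and -0.08 in cKO mice, and it stayed below 0 with centring and with the GC and length correction. Of the members with a 3-unit element in the promoter table, Hspd1, Hspe1, Dnajb6 and Hsph1, the fold changes lay between -0.14 and 0.04 in controls and between -0.27 and -0.02 in cKO mice in the authors' deposited tables, with none called by edgeR. At an unadjusted p below 0.05 stood Dnajb6 in controls and Hsph1 in cKO mice. Tissue was taken at 72 hours only, so an earlier rise was not measured.

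Around the module, 47 further genes of the HSF1 axis and of co-chaperones were listed, and all 47 were measured. After LPS in controls, the authors' deposited table had 0 risen and 1 fallen, where 6.46% of all genes rose and 3.31% fell. The fall was that of Sgtb, a tetratricopeptide co-chaperone of neurons (-0.24 ± 0.06 SE; FDR = 0.0434). The authors' deposited table for cKO mice had 4 risen and 7 fallen of the 47, where 10.9% of all genes rose and 8.52% fell. Bag3, the HSP70 partner that directs clients to autophagy and is itself an HSF1 target, rose by 1.23 ± 0.27 (SE; FDR = 0.0164) in the authors' deposited table for cKO mice, with 0.98 ± 0.28 (SE; FDR = 0.0543) in controls. Its estimated levels were log2 CPM 1.00 in cKO saline and 2.23 in cKO LPS, against 1.21 and 2.19 in controls. Hsf1 rose by 0.34 ± 0.10 (SE; FDR = 0.0443) in the authors' deposited table for cKO mice, with 0.26 ± 0.08 (SE; FDR = 0.0742) in controls. Bag6, which handles misplaced membrane proteins, and Cdc37, the kinase adaptor of HSP90, rose by 0.38 and 0.29 in the authors' deposited table for cKO mice. Among the falls were Pdcl, a CCT cofactor (-0.44), Chordc1, an HSP90 co-chaperone (-0.37), Hikeshi, the nuclear import carrier of HSP70 (-0.32), Sgtb (-0.32) and Bag1, a nucleotide exchange factor (-0.23), all in the authors' deposited table for cKO mice. Tcp1, the CCT subunit outside the symbol rule, had -0.17 ± 0.06 (SE), short of the threshold, in controls in the authors' deposited table, close to the subunits inside it. The median of the 47 was -0.04 in controls and -0.05 in cKO mice in the authors' deposited tables. Of 5 endoplasmic reticulum chaperones (Hspa5, Hsp90b1, Dnajb9, Hyou1, Sil1) 0 were called by edgeR in any of the authors' deposited tables, and 0 had an unadjusted p below 0.05.

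**Figure D3:**
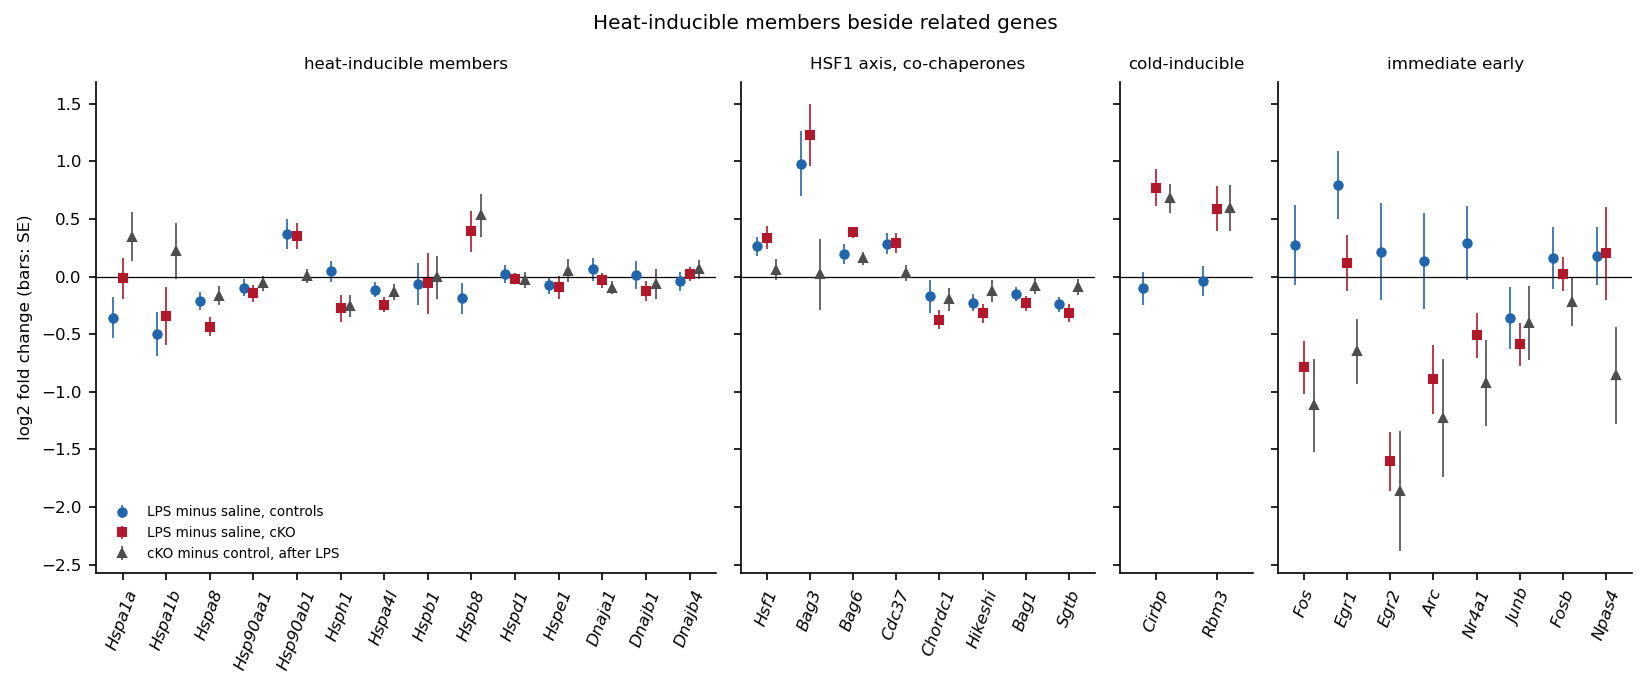
Log2 fold change with its SE, from the authors' deposited tables, for the 14 heat-inducible members, 8 genes of the HSF1 axis and co-chaperones, 2 cold-inducible genes and 8 immediate early genes, in the 3 comparisons (blue circles, LPS in controls; red squares, LPS in cKO; grey triangles, genotype after LPS). Bag3 stands at about 1 or above in both LPS comparisons while the heat-inducible members lie no further than 0.53 from 0, and all 8 immediate early genes lie below 0 between genotypes.

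Between genotypes after LPS no member passed. By edgeR in the authors' deposited table of genotypes, 0 of 67 members reached an FDR below 0.05, where 0.00725% of all genes (1 gene, which was lower in cKO mice) did and 0% were higher. At an unadjusted p below 0.05 there were 9 of 67 members (13.4%) and 12.3% of all genes in the authors' deposited table. The members' median log2 fold change was 0.03, against 0.00 for all genes, 42 of 67 lay above 0, and 55 intervals stayed within 1.5-fold in the authors' deposited table. All 67 point estimates were under 1.5-fold.

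The smallest FDR between genotypes belonged to Hspa2, an HSP70 best known from male germ cells. Its estimated levels were log2 CPM 5.69 in both saline groups, 5.44 in control LPS and 5.93 in cKO LPS. The LPS groups thus stood on opposite sides of a shared saline level. The authors' deposited table of genotypes gave 0.56 ± 0.09 (SE; FDR = 0.147), a level 1.48 times that of controls, and those of LPS gave -0.25 ± 0.08 (SE; FDR = 0.0900) in controls and 0.24 ± 0.09 (SE; FDR = 0.0738) in cKO mice. None of the 3 values passed the threshold. The difference of LPS responses, computed from the authors' deposited tables, was 0.49 ± 0.15 (SE; adjusted p = 0.402). With standard errors taken from F instead of the p-value it was called (adjusted p = 0.0181), where 103 of all genes (0.747%) were. That variant still uses the normal distribution and makes no allowance for the few mice, so its p-values are too small and the call carries little weight. In the authors' deposited table of genotypes after LPS, all 6 striatal markers (median 0.67) and all 3 measured choroid plexus markers (median 0.84, Folr1 not measured) lay above 0. Of each list 0 were called by edgeR and 1 had an unadjusted p below 0.05. Striatal markers, in levels computed from the authors' deposited tables, summed to 231 CPM in control saline and 216 in control LPS. They summed to 269 CPM in cKO saline and 315 in cKO LPS. Astrocyte markers summed to 3975, 3866, 4612 and 4119 CPM in the same groups and order. All 6 striatal (median 0.29) and all 7 astrocyte markers (median 0.23) thus already had untested saline estimates above 0 for cKO minus control. The part of these lists in the value of Hspa2 was not tested.

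Dnajb5 showed the opposite pattern. Estimated levels were log2 CPM 6.76 in control saline, 7.03 in control LPS, 6.84 in cKO saline and 6.55 in cKO LPS, so the LPS groups were the highest and the lowest of the 4. The authors' deposited table of genotypes gave -0.55 ± 0.12 (SE; FDR = 0.229), a level in cKO mice 0.683 times that of controls, and the difference of LPS responses computed from the authors' deposited tables was -0.56 ± 0.23 (SE; adjusted p = 0.657). Of 8 immediate early genes, which neurons switch on with activity, all lay below 0 between genotypes after LPS (median -0.89, 0 called by edgeR, 5 at an unadjusted p below 0.05) in the authors' deposited table. Their median in the authors' deposited tables was 0.20 after LPS in controls and -0.55 in cKO mice, where Egr2 (-1.60 ± 0.26 SE; FDR = 0.00669) and Fos (-0.79 ± 0.23 SE; FDR = 0.0401) fell. Their summed levels computed from the authors' deposited tables were 699 CPM in control saline, 828 in control LPS, 690 in cKO saline and 467 in cKO LPS. These genes and Dnajb5 thus shared the order of the LPS groups, and their part in its value was not tested.

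Other members stood near the top of that ranking without passing. Hspb8, a small heat shock protein that works with Bag3, had estimated levels of log2 CPM 3.48 in control saline, 3.29 in control LPS, 3.34 in cKO saline and 3.74 in cKO LPS. The authors' deposited table of genotypes gave 0.53 ± 0.19 (SE; FDR = 0.334) for it. Hspbap1, which binds the small heat shock protein Hspb1, had -0.48 ± 0.16 (SE; FDR = 0.325), and Hspa4 had -0.22 ± 0.08 (SE; FDR = 0.336) in the authors' deposited table of genotypes. Dnajc12, a partner of the aromatic amino acid hydroxylases, had 0.40 ± 0.16 (SE; FDR = 0.373) there in the authors' deposited table. None of the classical heat-inducible members was called by edgeR between genotypes, where 0.00725% of all genes were. Their median in the authors' deposited table was -0.02. An unadjusted p below 0.05 was held by 2 of 14 (Hspb8 and Hsph1), against 12.3% of all genes. Hspa1a and Hspa1b had 0.34 ± 0.21 (SE) and 0.22 ± 0.24 (SE) in the authors' deposited table of genotypes.

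The difference of LPS responses was tested directly, since the control and cKO comparisons share no mouse. It was called for 0 of 67 members and for 0.00725% of all genes (1 gene, with the lower response in cKO mice). At an unadjusted p below 0.05 there were 6 of 67 members (8.96%), against 6.52% of all genes. These were Hspa2, Dnajb5, Hspb8 (0.58 ± 0.25 SE), Hspbap1 (-0.44 ± 0.21 SE), Dnajc12 (0.40 ± 0.19 SE) and Hspa4 (-0.26 ± 0.13 SE), computed from the authors' deposited tables. For the falls called in cKO mice only, the difference was therefore not established: it was -0.22 ± 0.16 (SE; adjusted p = 0.849) for Hspa8 and -0.06 ± 0.10 (SE; adjusted p = 0.944) for Cct5, computed from the authors' deposited tables. For Dnajc7 it was 0.16 ± 0.21 (SE; adjusted p = 0.929), computed from the authors' deposited tables. Signs of the log2 fold changes in the authors' deposited tables were negative in both genotypes for 35 members, positive in both for 11 and opposite for 21.

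**Figure D4:**
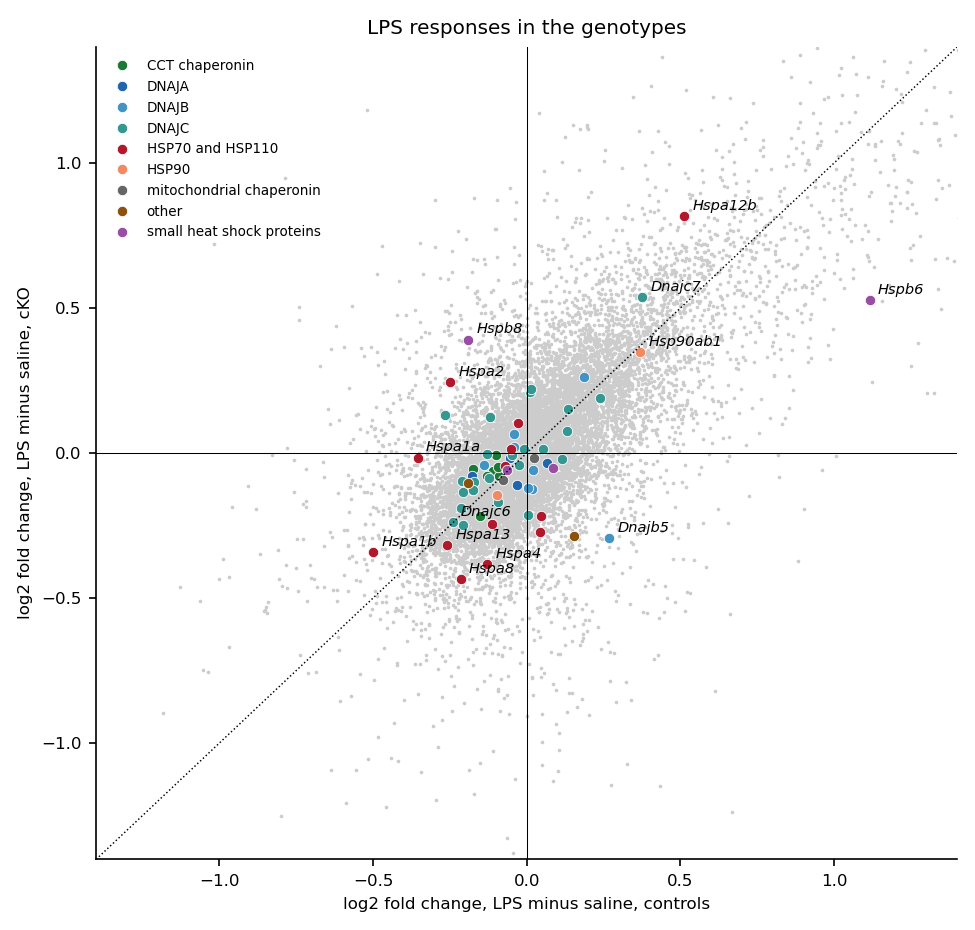
Log2 fold change after LPS in controls (horizontal axis) against that in cKO mice (vertical axis), from the authors' deposited tables, with members coloured by family, all other genes within the axis limits in grey and the dotted line marking equal responses. Most members lie close to 0 on both axes, Hspa12b, Dnajc7 and Hsp90ab1 are in the upper right, and Hspa2, Hspb8 and Dnajb5 lie on opposite sides of 0 in the 2 genotypes.

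No deposited table compares the saline groups, so the baseline difference could be estimated from the 3 fold changes but not tested. From the authors' deposited tables, the members' median estimate of cKO minus control at baseline was 0.01, against 0.00 for all genes. Hspa2 stood at 0.07, Dnajb5 at 0.01 and Hspb8 at -0.05 in these estimates from the authors' deposited tables, while Hspa12b stood at -0.33 and Hspb6 at 0.31. The same estimate was 12.4 for Ddx3y, 11.3 for Uty and -2.91 for Xist, so the saline groups also differ in sex-linked transcripts.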

How the data were processed

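RNA-seq of ribosome-depleted total RNA (stranded kit, per the labels' protocols) from 18 mouse cortices was analysed through the authors' deposited tables of 3 comparisons: LPS against saline in controls, LPS against saline in cKO mice, and cKO against control after LPS. The authors worked with edgeR 3.30.3, RSEM, STAR and cutadapt 3.5 on build GRCm39, per the submitters' processing notes; the sources used here do not state the gene filter. The columns the authors deposited for 13784 genes are, per the file headers, the log2 fold change, the average log2 CPM, the F statistic (a score without upper limit), the p-value and the FDR. The depth of each library is unknown. P-values measure the spread between these mice alone. Groups came from the genotype label, since every title carries the word saline.

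The headers do not give the direction of the fold changes. Read as LPS minus saline and cKO minus control, levels of one group computed from 2 tables had a gap with an SD of 0.0695 (control LPS) and 0.0694 (cKO LPS) over genes. With any sign turned, at least 1 SD was 0.230 or more. Levels assume libraries of equal weight and are unreliable for genes with very large fold changes. The 95% intervals use degrees of freedom worked out from F with its p-value (9.85, 9.76 and 8.66). The difference of LPS responses was divided by its standard error, each part derived from the deposited p-value through the normal distribution, with Benjamini-Hochberg adjustment over all genes; the test was checked on simulated data. Promoter windows came from RefSeq (GRCm38.p6); lengths, GC content and shared 50-base stretches came from GENCODE M21 on GRCm38 for 13730 genes, all 67 members included. Python 3.11.15, numpy 2.4.6, scipy 1.17.1 and statsmodels 0.14.6 were used. Centring subtracted the running median over 501 genes of like mean level.

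The members, gene lists and rules were chosen with earlier results of these data known. Named are the members past an FDR of 0.05, the heat-inducible list and a fixed set of family members, the 5 smallest p-values of each genotype test, and at most 6 called pathway genes per direction with Hsf1; 1 called pathway gene is not reported here. Alternatives were other FDR thresholds, a minimum fold of 1.5, a mean log2 CPM of at least 1, centring, removal of a GC and length trend, and standard errors from F. Protein sequences were not used here.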

Additional observations from a re-analysis of the deposited data

How the results depend on the processing

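Values per mouse were not used here, so no mouse could be left out and the batch, sex and depth of single libraries could not be adjusted for. No paired analysis was possible because the deposited tables hold no values per mouse. In controls the 2 called members became 7 (2 rose, 5 fell) at an FDR threshold of 0.10, 0 at 0.01, 1 with a minimum fold of 1.5 (Hspb6), 1 among genes averaging log2 CPM 1 or more (Dnajc6) and 0 with centring. In cKO mice the 12 called members became 1 at an FDR threshold of 0.01 (Dnajc7) and 1 with a minimum fold of 1.5 (Hspa12b); with centring 8 were called (5 rose, 3 fell) and with the GC and length correction 9 (3 rose, 6 fell). Hspa8, Hspa4, Cct5, Dnajc7, Dnajc8 and Hspa12b kept their cKO call under centring, GC removal and the filter on mean level. Between genotypes the count stayed at 0 under each alternative. The count for the difference of LPS responses was 1 (Hspa2) with standard errors from F and 0 otherwise. The p-values of the F variant leave out the degrees of freedom and are too small. The cause of each change was not tested. The members' median kept its sign in each comparison under centring, GC removal and the filter, and both corrections moved the median of all genes by less than 0.1. No alternative turned the sign of a called member.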

Other observations

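The cold-inducible RNA-binding genes Cirbp and Rbm3, which respond to temperature in the opposite sense to heat shock genes, were listed beside the members. Estimated levels of Cirbp were log2 CPM 5.40 in control saline, 5.29 in control LPS, 5.13 in cKO saline and 5.90 in cKO LPS, and those of Rbm3 were 6.26, 6.22, 6.17 and 6.76. Both were thus highest in the cKO LPS group. Cirbp rose by 0.77 ± 0.16 (SE; FDR = 0.0138) in the authors' deposited table for cKO mice and had -0.10 ± 0.14 (SE; FDR = 0.673) in controls. Rbm3 had 0.59 ± 0.20 (SE; FDR = 0.0604) in cKO mice and -0.03 ± 0.13 (SE; FDR = 0.889) in controls in the authors' deposited tables. Between genotypes after LPS the authors' deposited table gave 0.68 ± 0.13 (SE; FDR = 0.163) for Cirbp and 0.60 ± 0.20 (SE; FDR = 0.324) for Rbm3, neither past the threshold. The difference of their LPS responses was 0.87 for Cirbp (adjusted p = 0.431) and 0.62 for Rbm3 (adjusted p = 0.683), computed from the authors' deposited tables. The labels used here give no body temperature.

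Of 4 glucocorticoid targets, which include the HSP90 co-chaperone Fkbp5, Tsc22d3 fell in controls by 0.40 ± 0.10 (SE; FDR = 0.0391) and had -0.40 ± 0.16 (SE; FDR = 0.0983) in cKO mice in the authors' deposited tables. Between genotypes after LPS 0 of 4 were called by edgeR and 3 had an unadjusted p below 0.05 in the authors' deposited table, with Fkbp5 at 0.73 ± 0.27 (SE), Sgk1 at 0.68 ± 0.24 (SE), Tsc22d3 at 0.47 ± 0.13 (SE) and Per1 at -0.26 ± 0.16 (SE). Their untested saline estimate, computed from the authors' deposited tables, had a median of 0.45, against 0.00 for all genes.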
